A study of Mus musculus with 14 samples.

Results

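Genes of the major histocompatibility complex (MHC, called H2 in the mouse) and of antigen processing were followed in livers with acute liver failure. The 55 genes are the 45 rows of the count tables whose symbol starts with H2-, plus B2m, Tap1, Tap2, Tapbp, Cd74, Ciita, Nlrc5, Erap1, Cd1d1 and Mr1, out of 55357 genes in all. All 14 livers came from male C57BL/6 mice that were 5 to 6 weeks old before a week of acclimatisation. The 8 model livers came from mice given lipopolysaccharide (LPS, from the bacterial cell wall) at 10 µg/kg and D-galactosamine (D-GalN, which injures hepatocytes) at 300 mg/kg into the peritoneum. The 6 control livers came from mice given saline, and all livers were taken 24 h after the injection. The poly(A) RNA of whole liver was sequenced, so all cell types of the organ are mixed in each library, and the labels do not say whether each sample is a separate animal. The p-values therefore measure the spread between these samples, which may be technical.

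MHC class I molecules are made by nearly all cells and show peptides from inside the cell to CD8+ T cells. A heavy chain pairs with the light chain beta-2 microglobulin (B2m), the TAP1 and TAP2 transporter brings peptides into the endoplasmic reticulum, tapasin (Tapbp) holds the empty molecule beside the transporter, and ERAP1 trims the peptides. Non-classical class I molecules vary little between individuals and present special ligands to innate-like lymphocytes. MHC class II molecules are made mainly by dendritic cells, B cells and macrophages and show peptides from engulfed material to CD4+ T cells. NLRC5 and CIITA are related transcriptional regulators, NLRC5 of class I genes and CIITA of class II genes.

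Values are counts scaled by library size (CPM) with TMM factors. Calls rest on edgeR's quasi-likelihood test, at an adjusted p under 0.05 over the 12915 genes tested, and fold changes are model over control. The libraries held 10329469 to 16639972 counts in genes for model and 7914120 to 14463540 for control. Of the 55 genes, 41 had at least 1 count and 32 passed the filter on low counts. Of those 32, 23 were higher in model, 0 were lower and 9 had no call. A gene at low counts could pass the filter through 1 group alone. Among the 23, Ciita and H2-Q6 were scarce in control, with medians of 0.376 and 0.555 CPM. They passed mainly through the model libraries, where their medians were 1.28 and 2.33 CPM, so the filter favoured a call of higher for them. None of the 32 was lower at an unadjusted p under 0.05 by edgeR either. DESeq2 and limma-voom also called 0 lower, with 1 and 0 lower at an unadjusted p under 0.05. Over all genes tested 26.6% were called higher and 21.3% lower. In 15 of the 32 every model library was above every control library in CPM, as was the case for 14.6% of all genes tested. The median log2 fold change was 1.17 for the 32 genes and 0.01 for all genes tested. By class, all 3 classical class I genes, all 5 genes of class I loading and regulation, 8 of 14 tested non-classical genes, 6 of 9 tested class II genes and H2-K2, a transcribed pseudogene and the only tested row outside these classes, were higher.

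**Figure D1:**
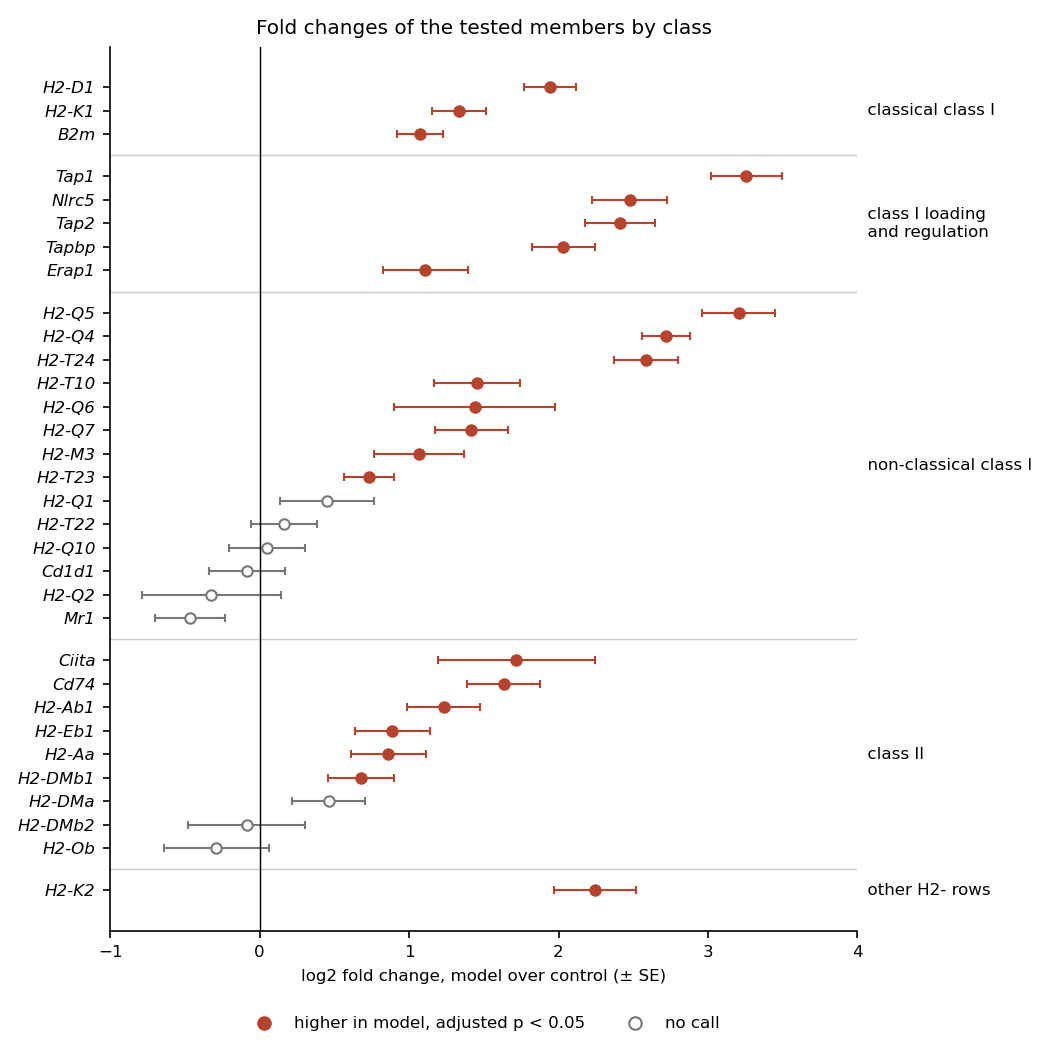
Log2 fold change of model over control (x axis) for the 32 tested genes, sorted within each class, with the standard error as bars. Filled points were higher in model at an adjusted p under 0.05 and open points had no call. Tap1 stands farthest to the right at 3.26, and the open points lie between -0.47 and 0.46.

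The stretch of DNA just before the start of 6 of these genes is given first, because the classical genes H2-K1 and H2-D1 and the non-classical H2-Q4 were higher in model while their close relative H2-Q10 had no call. B2m and the class II gene H2-Eb1 are given for comparison. Each is 200 bases on the strand of the gene, from RefSeq on build GRCm38.p6, and ends at the base before the annotated start of transcription (for H2-K1, 1 of its 2 annotated starts). Capitals mark letters of 5 motifs on either strand: GAAANNGAA and GAANNGAAA, which are both spacings of an interferon response element, CCAAT (bound by NF-Y), GGGANTCCC (bound by NF-kB) and ACNGATG (the X box bound by RFX). H2-K1 is at chr17:34000334-34000533 on the minus strand. On the plus strand, H2-D1 is at chr17:35262894-35263093, H2-Q4 at chr17:35379417-35379616, H2-Q10 at chr17:35469889-35470088, B2m at chr2:122147487-122147686 and H2-Eb1 at chr17:34305667-34305866.
H2-K1: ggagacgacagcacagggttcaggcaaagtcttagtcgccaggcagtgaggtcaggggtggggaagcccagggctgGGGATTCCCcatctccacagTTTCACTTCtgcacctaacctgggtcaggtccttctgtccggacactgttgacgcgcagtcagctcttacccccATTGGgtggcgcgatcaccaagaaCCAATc
H2-D1: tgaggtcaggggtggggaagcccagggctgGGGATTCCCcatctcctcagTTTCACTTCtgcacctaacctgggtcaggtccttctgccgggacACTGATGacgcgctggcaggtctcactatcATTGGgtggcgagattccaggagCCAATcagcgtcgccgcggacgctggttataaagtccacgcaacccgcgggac
H2-Q4: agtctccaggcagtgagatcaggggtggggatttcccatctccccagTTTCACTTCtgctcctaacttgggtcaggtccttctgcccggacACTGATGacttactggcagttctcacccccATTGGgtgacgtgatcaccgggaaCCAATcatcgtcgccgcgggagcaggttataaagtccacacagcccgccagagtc
H2-Q10: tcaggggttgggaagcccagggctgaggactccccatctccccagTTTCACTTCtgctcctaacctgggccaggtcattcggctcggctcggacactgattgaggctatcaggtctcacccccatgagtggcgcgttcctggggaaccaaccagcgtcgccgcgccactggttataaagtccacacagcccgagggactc
B2m: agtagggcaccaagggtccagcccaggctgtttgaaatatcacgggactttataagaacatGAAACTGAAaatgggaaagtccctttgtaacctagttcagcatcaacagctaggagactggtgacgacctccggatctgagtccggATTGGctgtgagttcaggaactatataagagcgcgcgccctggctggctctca
H2-Eb1: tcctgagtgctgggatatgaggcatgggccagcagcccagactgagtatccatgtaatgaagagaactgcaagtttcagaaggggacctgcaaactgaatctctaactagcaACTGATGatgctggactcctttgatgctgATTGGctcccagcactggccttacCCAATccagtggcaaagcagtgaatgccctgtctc

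In the 250 bases before their start, H2-K1 and H2-D1 held the letters of the NF-kB motif, CCAAT and the GAANNGAAA spacing, and H2-D1 also held the X box. H2-Q4 held CCAAT, the X box and GAANNGAAA. H2-Q10 held GAANNGAAA and none of the other 4. Of the 32 tested genes, 21 have a promoter in the table used. CCAAT was in 18 of those 21 and in 33.8% of all 32851 promoters of the table. The X box was in 9 of 21 (8.31% of all promoters), GAANNGAAA in 7 (6.31%), GAAANNGAA in 4 (7.13%) and the NF-kB motif in 4 (0.636%). Of the 21 genes, 14 were higher and 7 had no call, and H2-Q10 is the only 1 of those 7 printed above. CCAAT was in 13 of the 14 and 5 of the 7, and the X box in 8 and 1. GAANNGAAA was in 6 and 1, GAAANNGAA in 3 and 1 and the NF-kB motif in 4 and 0. A link between motifs and calls was not tested. The 4 with the NF-kB letters were H2-K1, H2-D1, H2-Q6 and H2-Q7, and the 4 with GAAANNGAA were B2m, Erap1, H2-T22 and H2-T23. The NF-kB tally depends on the pattern chosen, which takes GGGANTCCC only. Similar letters of another length were not counted, such as gggatttccc in H2-Q4 and gggaaagtccc in B2m. A gene outside the 4 may therefore still hold another form of the motif. These genes share ancestry, so their promoters are not independent, and the GAANNGAAA spacing was added after the sequences had been read. A match of letters is a description of the sequence and does not show that a factor was bound in these livers.

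The classical class I genes H2-K1 and H2-D1, whose products are the main peptide-presenting class I molecules of C57BL/6 mice, were higher in every model library than in any control library, as was B2m. H2-K1 (ENSMUSG00000061232.17) had 1392, 1572 and 1669 CPM as lowest, median and highest value in model, against 371, 632 and 803 CPM in control. The log2 fold change was 1.33 (SE 0.18, adjusted p = 1.03e-05). H2-D1 (ENSMUSG00000073411.13) had 919, 1164 and 1296 CPM in model, against 211, 299 and 364 CPM in control, a log2 fold change of 1.94 (SE 0.17, adjusted p = 5.89e-08). B2m (ENSMUSG00000060802.9, chromosome 2), the light chain that all class I molecules share, had 2504, 2808 and 3094 CPM in model, against 1145, 1341 and 1555 CPM in control. Its log2 fold change was 1.07 (SE 0.16, adjusted p = 1.99e-05). Among controls, control 4 was lowest and control 6 highest for each of these 3 genes. Among 100-base windows of the longest transcript of each, 100% for H2-K1 and 95.4% for H2-D1 occur in no transcript of another annotated gene. Over all annotated transcripts of each gene the shares were 99.0% for H2-K1 and 96.4% for H2-D1.

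The genes that load class I molecules and the regulator Nlrc5 were all higher in model, with Tap1 highest in fold change among the 32. Tap1 (chromosome 17) had 83.5, 103 and 143 CPM as lowest, median and highest value in model, against 6.95, 10.7 and 17.0 CPM in control (log2 fold change 3.26, SE 0.24, adjusted p = 4.64e-09). Tap2, the other subunit of the peptide transporter, had 43.9, 50.4 and 63.6 CPM in model, against 4.24, 9.50 and 14.6 CPM in control (log2 fold change 2.41, SE 0.24). Tapbp had 149, 175 and 221 CPM in model, against 22.9, 45.1 and 65.0 CPM in control (log2 fold change 2.03, SE 0.21). For these 3 genes the groups were far apart, with the lowest model library above the highest control library. Nlrc5 (chromosome 8), the regulator of class I genes, had 24.8, 30.5 and 50.8 CPM in model, against 4.34, 5.56 and 9.96 CPM in control, again without overlap (log2 fold change 2.48, SE 0.25). The adjusted p of Tap2, Tapbp and Nlrc5 was 2.10e-07, 4.26e-07 and 3.55e-07.

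Erap1 (chromosome 13), the trimming peptidase, was the exception in this class, because its groups overlapped. It had 44.5, 64.8 and 118 CPM in model, against 18.9, 26.1 and 63.9 CPM in control (log2 fold change 1.11, SE 0.28, adjusted p = 0.00384). Control 6, at 63.9 CPM, was above 4 of the 8 model libraries, and the other controls were below all of them. Part of the exons of Tap1, Tap2, Tapbp and Erap1 lies opposite a gene on the other strand, and the strand setting of the counting is not given in the sources used here. The largest such overlap for each was 3.87% of the exonic length of Tap1 (with Psmb9), 14.1% of Tap2 (Gm15821), 24.9% of Tapbp (Gm19412) and 11.5% of Erap1 (Cast).

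**Figure D2:**
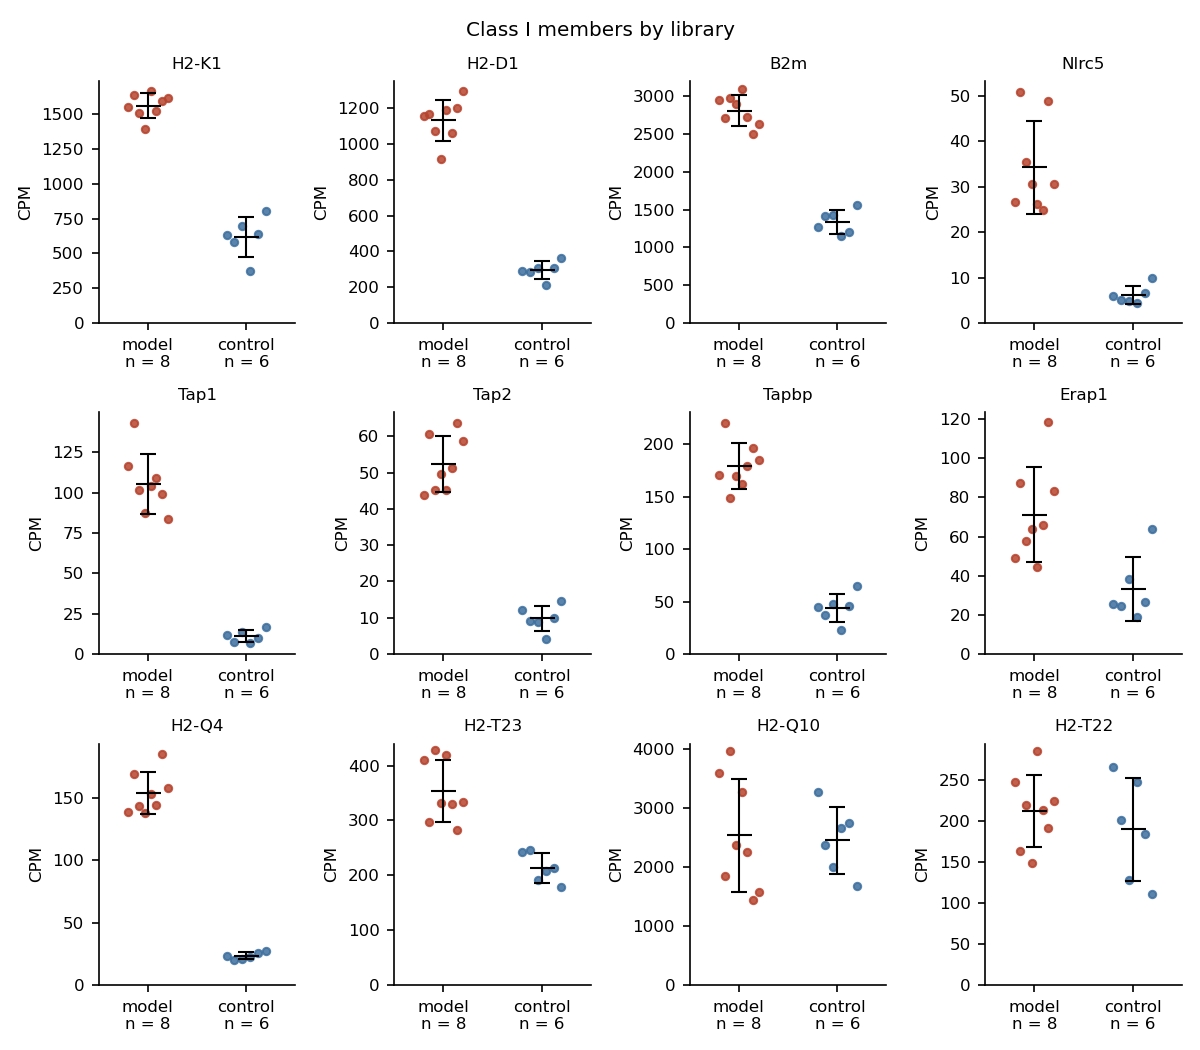
CPM of 12 class I genes in each library, model on the left (n = 8) and control on the right (n = 6), each y axis starting at 0. Points are libraries, and the black marks are the mean with the SD. H2-K1, H2-D1, B2m, Nlrc5, Tap1, Tap2, Tapbp, H2-Q4 and H2-T23 show no overlap between the groups, while H2-Q10 and H2-T22 cover the same range in both.

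Non-classical class I genes divided into some with changes as large as those of Tap2 and some without a call. Of 30 rows, 20 had a count and 14 passed the filter. H2-Q4 had 138, 149 and 186 CPM as lowest, median and highest value in model, against 20.4, 22.9 and 27.1 CPM in control (log2 fold change 2.72, SE 0.16, adjusted p = 4.09e-10). H2-Q5, a polymorphic pseudogene in the annotation, had 10.3, 14.4 and 17.5 CPM in model, against 0.985, 1.57 and 2.06 CPM in control (log2 fold change 3.20, SE 0.24). H2-T24 had 8.03, 11.3 and 15.0 CPM in model, against 1.48, 1.86 and 2.41 CPM in control (log2 fold change 2.59, SE 0.22). In each of these 3 genes the lowest model library was well above the highest control library. H2-T23 codes for Qa-1, a ligand of inhibitory receptors on natural killer cells. It was called with the smallest fold change of the 8, at 282, 332 and 428 CPM in model, against 179, 210 and 247 CPM in control (log2 fold change 0.73, SE 0.17, adjusted p = 0.00147). Its groups did not overlap. Scaled by library totals alone, its log2 fold change was 0.48 (adjusted p = 0.00579).

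The other 4 called non-classical genes were expressed at lower levels. H2-M3, which presents peptides that start with N-formylmethionine, a mark of bacteria and mitochondria, had 3.87, 7.50 and 10.4 CPM in model, against 1.75, 3.40 and 5.01 CPM in control (log2 fold change 1.07, SE 0.30, adjusted p = 0.00740). Model 6, model 7 and model 8 lay within the control range for H2-M3, at 5.01, 3.87 and 4.62 CPM. H2-Q7, one of the genes for the Qa-2 antigen, had 6.97, 12.1 and 14.6 CPM in model, against 3.34, 3.74 and 8.20 CPM in control (log2 fold change 1.42, SE 0.25). H2-T10 had 4.08, 6.82 and 9.49 CPM in model, against 1.13, 2.47 and 3.73 CPM in control (log2 fold change 1.45, SE 0.29). Only model 6 fell within the control range for H2-Q7, below control 4, and the groups did not overlap for H2-T10. H2-Q6 had 1.17, 2.33 and 4.53 CPM in model, against 0, 0.555 and 2.90 CPM in control (log2 fold change 1.44, SE 0.54, adjusted p = 0.0350). Its call was lost in 12 of 25 alternative settings, and its log2 fold change was 2.46 without control 6.

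H2-Q10, a secreted class I molecule made by hepatocytes, had the highest mean CPM of any class I heavy chain gene in both groups, and it had no call. Its values were 1443, 2320 and 3972 CPM in model, against 1673, 2523 and 3282 CPM in control (log2 fold change 0.05, SE 0.25, adjusted p = 0.884). H2-T22, whose product is bound by a subset of gamma-delta T cells, had 148, 216 and 285 CPM in model, against 110, 193 and 266 CPM in control (log2 fold change 0.16, SE 0.22). Cd1d1 (chromosome 3), which presents lipids to natural killer T cells, had 114, 231 and 341 CPM in model, against 153, 246 and 320 CPM in control (log2 fold change -0.09, SE 0.26). For all 3 the groups overlapped over most of their range, and control 6 was the lowest control. Model 7 and model 8 were the lowest model libraries for H2-Q10, at 1443 and 1576 CPM, and for Cd1d1, at 114 and 124 CPM.

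Mr1 (chromosome 1), which presents vitamin B metabolites to mucosal-associated invariant T cells, was the tested gene with the lowest fold change. It had 2.15, 2.99 and 4.47 CPM in model, against 3.05, 3.82 and 6.85 CPM in control, with overlap and no call (log2 fold change -0.47, SE 0.23, adjusted p = 0.108). Mr1 was called lower with library totals (log2 fold change -0.70, adjusted p = 0.0140) and with upper-quartile factors (-0.60, adjusted p = 0.0438). Those scalings moved the median log2 fold change of all genes to -0.23 and -0.14. H2-Q1 had 4.70, 7.81 and 12.6 CPM in model, against 3.08, 5.16 and 12.9 CPM in control (log2 fold change 0.45, SE 0.32). Control 4 was the highest library of both groups for H2-Q1, and without it the log2 fold change was 0.80 (adjusted p = 0.0305). H2-Q2 stayed near 1 CPM in both groups, with a median of 0.899 CPM in model and 0.950 CPM in control.

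Class I heavy chain genes are near-identical over parts of their length, and reads aligned to several places made up 13.4% to 18.6% of the entries of a library and are in no gene's count. The share of 100-base windows of the longest transcript found in no other annotated gene was 91.2% for H2-Q10, 85.4% for H2-Q4, 87.1% for H2-Q5, 87.0% for H2-Q6, 86.5% for H2-Q7, 96.1% for H2-T23 and 100% for H2-T24. It was 70.3% for H2-T10 and 61.9% for H2-T22, which share sequence with each other and overlap genes on the other strand, so their values are the least certain of the class. Over all annotated transcripts it was 71.9% for H2-T10 and 68.5% for H2-T22. H2-Q4 also overlaps a gene on the other strand, Gm11131, over 19.1% of its exonic length.

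Together, the heavy chain genes of class I (H2-K1, H2-D1 and the H2-Q, H2-T and H2-M rows) had 4963, 5475 and 7409 CPM as lowest, median and highest sum in model, against 3174, 3747 and 4761 CPM in control. H2-Q10 held 41.1% ± 9.18 (SD) of that sum in model (n = 8) and 63.7% ± 6.70 in control (n = 6). H2-K1 held 26.5% ± 4.44 in model and 16.7% ± 5.52 in control, and H2-D1 held 19.3% ± 3.83 in model and 7.91% ± 2.13 in control. H2-K1 and H2-D1 together were above H2-Q10 in model 2, model 6, model 7 and model 8 and below it in the other 4 model libraries and in every control library. Per kilobase of exon, which allows levels of different genes to be compared, H2-Q10 held 31.2% ± 8.14 of the heavy chain CPM in model and 53.9% ± 7.28 in control. On that scale the order of the mean levels was B2m, H2-Q10, H2-K1 and H2-D1 in both groups, at 3265, 585, 531 and 440 CPM per kilobase in model, against 1553, 565, 211 and 114 CPM per kilobase in control. In model, H2-Q10 and H2-K1 were closer to each other than the spread of H2-Q10 between libraries. These shares are descriptions and were not tested.

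**Figure D3:**
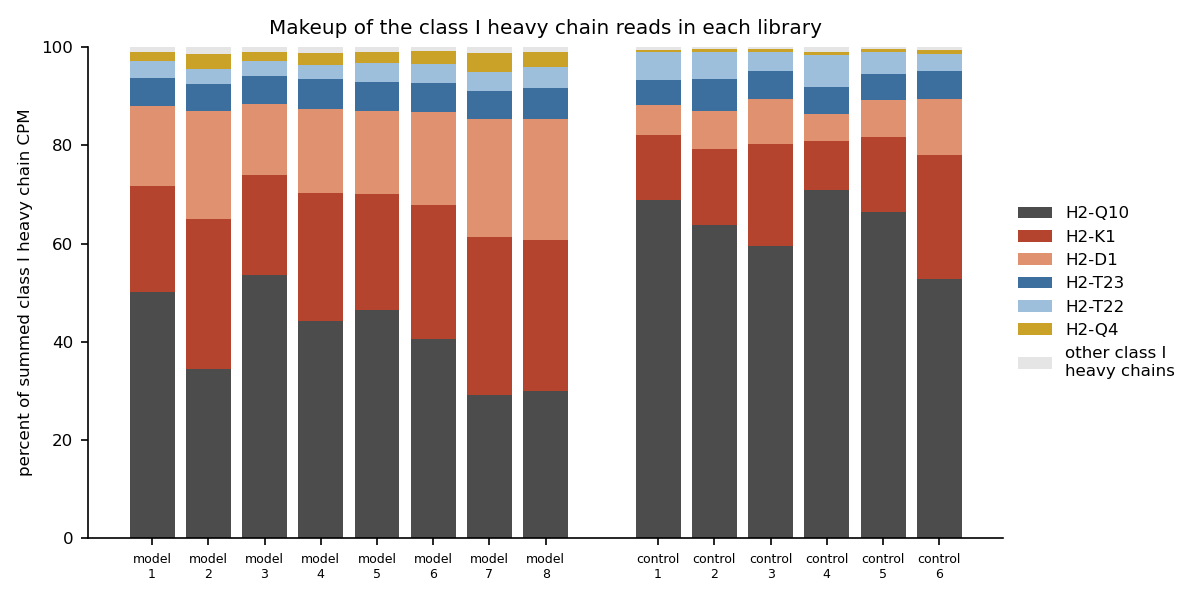
Percent of the summed class I heavy chain CPM (y axis) held by 6 genes and by the rest, with 1 bar per library, model on the left and control on the right. The dark H2-Q10 segment is between 29.1% and 53.6% in model libraries and between 52.7% and 70.9% in control libraries.

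Whether members of a complex or class moved by the same amount was asked with log2 ratios of 12 pairs of genes within each library, which do not depend on library scaling. Each was compared between the groups with a two-sided exact permutation test over the 3003 ways of dividing the 14 libraries into 8 and 6 (smallest possible p 0.000333), adjusted over the 12 pairs. Of the 12 ratios, 8 differed. The log2 ratio of H2-D1 to H2-K1 was -0.47 ± 0.08 in model and -1.05 ± 0.13 in control (SD, n = 8 and 6), a difference of 0.59 without overlap of the groups (exact permutation, adjusted p = 0.00133). The ratio of H2-Q10 to H2-K1 was 1.38 lower on the log2 scale in model (difference -1.38, exact permutation, adjusted p = 0.00466), and that of H2-T23 to H2-K1 was lower as well (difference -0.64, exact permutation, adjusted p = 0.00970). B2m to H2-K1 differed by -0.29 (exact permutation, adjusted p = 0.0185), and without control 4 by -0.19 (exact permutation, adjusted p = 0.0548). Its call was also lost without model 7 and model 8 (-0.23, exact permutation, adjusted p = 0.0844). H2-M3 to H2-K1 had no call (difference -0.33, exact permutation, adjusted p = 0.411).

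Within class I loading, Tap1 had a larger fold change than its partners. The difference in log2 ratio between model and control was -0.82 for Tap2 to Tap1, -1.21 for Tapbp to Tap1 and -2.14 for Erap1 to Tap1. The groups did not overlap for Tapbp to Tap1 or Erap1 to Tap1, and the adjusted p of the exact permutation test was 0.00466, 0.00133 and 0.00133 for the 3 ratios in that order. In controls Erap1 had more CPM than Tap1 in each library, with a log2 ratio of 1.13 to 1.90, while in model the ratio ran from -1.24 to 0.26. Tapbp had more CPM than Tap1 in every library, with a log2 ratio of 0.55 to 1.15 in model and 1.70 to 2.35 in control.

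**Figure D4:**
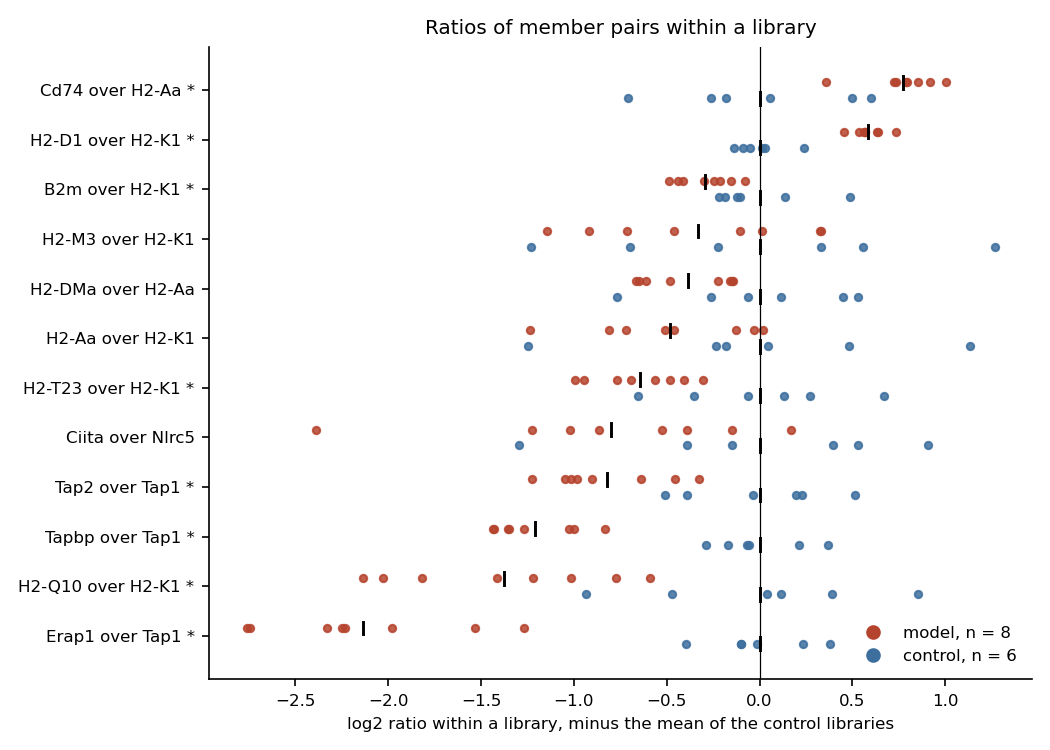
Log2 ratio of 2 genes within a library, set to 0 at the mean of the control libraries (x axis), for 12 pairs, with model above control in each row. Points are libraries, short black lines are group means, and a star marks the 8 pairs with an adjusted p under 0.05. Erap1 over Tap1 lies farthest to the left, at -2.14 for the mean of the model libraries.

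The 3 expressed chains of class II molecules were higher in model, with groups that overlapped. H2-Aa and H2-Ab1 code for the alpha and beta chains of I-A, the class II molecule that C57BL/6 mice use. H2-Aa had 32.2, 51.4 and 80.5 CPM as lowest, median and highest value in model, against 13.9, 30.5 and 41.8 CPM in control (log2 fold change 0.86, SE 0.25, adjusted p = 0.00882). H2-Ab1 had 37.5, 65.6 and 90.9 CPM in model, against 14.5, 27.5 and 40.2 CPM in control (log2 fold change 1.23, SE 0.25, adjusted p = 0.000530). H2-Eb1, the beta chain of I-E, had 19.9, 33.6 and 52.2 CPM in model, against 8.77, 21.0 and 24.8 CPM in control (log2 fold change 0.89, SE 0.25, adjusted p = 0.00764). Model 7 was the lowest model library and control 3 the lowest control for all 3 chains, and model 7 alone lay within the control range. H2-Ea, the alpha chain of I-E, had 0 counts in all 14 libraries, which allows up to 0.0171 CPM over them. Its gene carries a deletion in the H2 haplotype of C57BL/6 mice.

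Cd74, the invariant chain that fills the groove of new class II molecules, was higher without overlap, at 66.5, 95.1 and 157 CPM in model, against 21.5, 28.1 and 53.7 CPM in control (log2 fold change 1.63, SE 0.24, adjusted p = 2.92e-05). Its log2 ratio to H2-Aa was 0.90 ± 0.19 in model and 0.13 ± 0.49 in control (SD, n = 8 and 6), a difference of 0.77 (exact permutation, adjusted p = 0.00466). Ciita (chromosome 16), the regulator of class II genes, was at low counts, with 0.537, 1.28 and 2.47 CPM in model, against 0, 0.376 and 0.930 CPM in control (log2 fold change 1.72, SE 0.53, adjusted p = 0.0121). Model 1, model 6 and model 7 lay within the control range for Ciita. The ratio of Ciita to Nlrc5 had no call (difference -0.80, exact permutation, adjusted p = 0.103), but it was called with a prior count of 5 in place of 2 (-1.19, exact permutation, adjusted p = 0.00457) and without control 2 (-1.06, exact permutation, adjusted p = 0.0259), where Ciita had no count. With a prior count of 0.5 the difference was -0.28 (exact permutation, adjusted p = 0.658).

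Of the genes for H2-DM, which exchanges the invariant chain fragment for peptide, and for H2-O, which holds H2-DM back, H2-DMb1 was higher and the other 3 tested had no call. H2-DMb1 had 4.35, 5.86 and 7.04 CPM in model, against 1.84, 3.84 and 4.34 CPM in control (log2 fold change 0.68, SE 0.22, adjusted p = 0.0170). The lowest model library, at 4.35 CPM, was just above the highest control at 4.34 CPM, and the call was lost with library totals (0.45, adjusted p = 0.103) and upper-quartile factors (0.54, adjusted p = 0.0615). H2-DMa had 3.99, 5.81 and 7.14 CPM in model, against 2.23, 4.35 and 6.29 CPM in control, with no call (log2 fold change 0.46, SE 0.24, adjusted p = 0.126). Of its exonic length, 10.4% lies opposite Brd2 on the other strand. H2-DMb2 had medians of 0.808 CPM in model and 1.03 CPM in control (log2 fold change -0.09, SE 0.39), and H2-Ob 0.955 CPM in model and 1.33 CPM in control (-0.29, SE 0.35). H2-DMb1 and H2-DMb2 are near-identical in part, and 86.3% and 87.1% of the 100-base windows of their longest transcripts occur in no other gene. H2-Oa was below the filter, with a median of 0.447 CPM in model and 0.329 CPM in control. The ratios of H2-DMa to H2-Aa (difference -0.39, exact permutation, adjusted p = 0.0981) and of H2-Aa to H2-K1 (-0.49, exact permutation, adjusted p = 0.186) had no call. The first was called without control 2 (-0.54, exact permutation, adjusted p = 0.0173) and the second without control 3 (-0.73, exact permutation, adjusted p = 0.0249). At the other end, the first was -0.28 without control 3 (exact permutation, adjusted p = 0.204) and the second -0.26 without control 4 (exact permutation, adjusted p = 0.432).

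In whole liver, more cells of a type and more RNA per cell cannot be told apart. The counts of called markers below stand beside 26.6% called higher and 21.3% lower over all genes tested. Markers scarce in control could pass the filter through the model libraries alone, as Ly6g did. Of the dendritic cell markers Flt3, Zbtb46, Itgax, Xcr1, Clec9a, Cd209a, Siglech, Ccr7 and Fscn1, 5 were tested and 4 were higher, and the sum of all 9 was 17.3 to 30.3 CPM in model and 5.40 to 8.70 CPM in control. Ccr7 and Fscn1 made up 60.2% to 75.5% of that sum in model and 19.0% to 46.8% in control. The other 7 summed to 5.77 to 10.3 CPM in model (median 7.84) and 4.12 to 5.89 CPM in control (median 5.09). These ranges overlapped only in that the lowest model library lay below the highest control. Among these 7, Itgax (log2 fold change 2.40, SE 0.54) and Siglech (1.66, SE 0.43) were higher, both at low counts. The markers Flt3, Xcr1, Clec9a and Cd209a, which define conventional dendritic cells, were below the filter in both groups, and Zbtb46 had no call. The 6 B cell markers summed to 2.86 to 8.83 CPM in model and 3.61 to 9.38 CPM in control. Of the 3 tested 0 were called by edgeR, DESeq2 or limma-voom (0, 1 and 0 at an unadjusted p under 0.05). All 5 monocyte markers and all 6 neutrophil markers were higher, with sums of 93.1 to 159 CPM and 1110 to 2709 CPM in model, against 1.80 to 4.60 CPM and 3.61 to 16.3 CPM in control. The monocyte markers were Ly6c2, Ccr2, Chil3, F13a1 and Itgam. Whether neutrophils gave part of the reads of these monocyte markers was not tested. The neutrophil marker Ly6g was at 0 in all controls. Of the 6 Kupffer cell markers, 2 were higher (Timd4 and Marco) and 2 lower (Vsig4 and Cd5l), while Clec4f and Folr2 had no call. Their sum was 195 to 431 CPM in model and 187 to 281 CPM in control. Marco alone had 87.3 to 155 CPM in model and 2.97 to 13.3 CPM in control. Clec4f had 42.7 to 132 CPM in model and 66.9 to 120 CPM in control. Cd5l had 37.7 to 82.5 CPM in model and 71.9 to 108 CPM in control. Of 5 markers of sinusoidal endothelium, 2 were lower, with a sum of 54.2 to 121 CPM in model and 109 to 180 CPM in control. Of 5 markers of T and NK cells, 3 were tested and 2 were higher, with a sum of 3.28 to 6.82 CPM in model and 1.24 to 3.85 CPM in control. Of 6 hepatocyte markers 2 were higher and 1 lower, and their sum was 79139 to 94058 CPM in model and 59676 to 73386 CPM in control. Albumin (Alb) alone had 40619 to 62925 CPM in model and 20249 to 48575 CPM in control. The other 5 hepatocyte markers summed to 22090 to 48132 CPM in model and 24059 to 50579 CPM in control, overlapping over most of their range. The part of these cell types in the results was not tested.

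**Figure D5:**
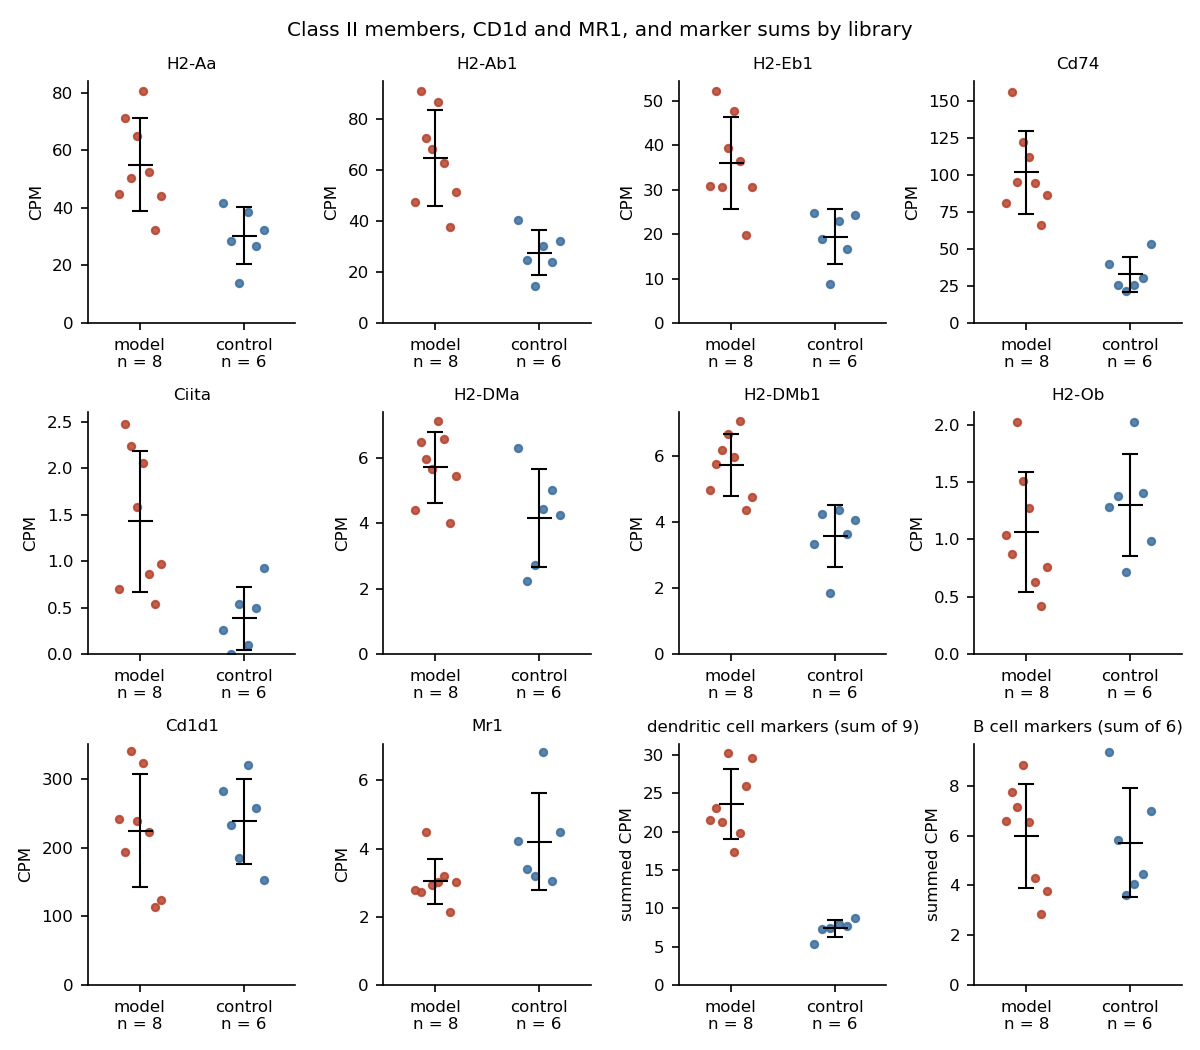
CPM of 8 class II genes, Cd1d1 and Mr1 in each library, and the summed CPM of 9 dendritic cell markers and 6 B cell markers, model on the left (n = 8) and control on the right (n = 6). Points are libraries, and the black marks are the mean with the SD. The dendritic cell sum separates the groups, at 17.3 CPM or more in model, of which Ccr7 and Fscn1 made up 60.2% or more, while the B cell sum covers the same range in both.

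Whether genes varied together between libraries of 1 group was examined for 6 pairs in each group, 12 relations in all, on log2 CPM, with two-sided exact permutation tests adjusted over the 12. Cd74 with H2-Aa in the model libraries was the only relation to pass. Its Pearson r was 0.89 (exact permutation, n = 8, adjusted p = 0.0461) and its Spearman rho was 0.88 (exact permutation, adjusted p = 0.0869). Without the 2 libraries farthest from the median of Cd74, model 2 and model 7, r was 0.88. In control the r of that pair was 0.57 and its rho 0.49 (exact permutation, n = 6, adjusted p = 0.424 and 0.533). Ciita with H2-Aa had r 0.82 and rho 0.71 in model (exact permutation, adjusted p = 0.0611 and 0.173), and r was 0.65 without model 2 and model 7. Tap1 with H2-K1 had r 0.36 and rho 0.26 in model (exact permutation, adjusted p = 0.563 and 0.677) and r 0.84 and rho 0.94 in control (exact permutation, adjusted p = 0.0611 and 0.1). The B cell marker Cd79a with H2-Aa had r 0.77 and rho 0.71 in model (exact permutation, adjusted p = 0.0730 and 0.173). That relation rested on model 7 and model 8, without which r was 0.35. The other 6 relations had adjusted p of 0.168 or more for r. In the model group, H2-Aa, Cd74 and Cd79a were all lowest in model 7.

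The 23 genes that were not tested include 14 without a single count in any library. These were H2-M1, H2-M9, H2-M11, the 6 genes H2-M10.1 to H2-M10.6, the pseudogene H2-M10.5-ps1, H2-Ea, H2-Ke6, H2-Pa and H2-Pb. Genes of the H2-M10 family are known from sensory neurons of the vomeronasal organ. H2-Ke6 is a dehydrogenase gene that lies in the region and is no MHC molecule, and 86.4% of its exonic length also belongs to Gm20427 on the same strand of the GRCm38 annotation. The part of that overlap in its counts was not tested. The other 9 untested genes, H2-Oa, H2-Eb2, H2-Bl, H2-T-ps, H2-M2, H2-M6-ps, H2-M5, H2-Q3 and H2-T3, had 1 to 64 counts over all libraries and at most 1.07 CPM in any. H2-Eb2 had a median of 0.335 CPM in model and 0.0530 CPM in control. H2-K2, a transcribed pseudogene near H2-K1, passed the filter and was higher without overlap, at 9.86, 24.3 and 31.0 CPM in model, against 3.85, 4.46 and 6.08 CPM in control (log2 fold change 2.24, SE 0.27, adjusted p = 2.87e-06). Model 7 and model 8, at 13.5 and 9.86 CPM, were the lowest model libraries for it.

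A list of 38 other genes of these pathways was set beside the 55. Of the 36 tested, 25 were higher in model, 3 lower and 8 had no call, with a median log2 fold change of 1.02. Over all genes tested 26.6% were called higher and 21.3% lower. In the class I pathway 8 of 12 tested were higher and 1 lower. Psmb8, an inducible subunit of the immunoproteasome, which cuts proteins into class I peptides, was higher (79.1 ± 15.1 CPM in model and 38.9 ± 14.0 CPM in control, SD, n = 8 and 6, log2 fold change 1.03, SE 0.22). Psmb9, which overlaps Tap1, was higher as well (log2 fold change 1.01, SE 0.25), while the third inducible subunit Psmb10 had no call (0.34, SE 0.22), and neither did the proteasome activator genes Psme1 (0.46, SE 0.22) and Psme2 (0.38, SE 0.31). The lectin-like chaperones Calr (1.02, SE 0.18) and Canx (1.16, SE 0.17) and the tapasin-related Tapbpl (1.66, SE 0.21) were higher. Blmh, a cytosolic peptidase, was lower (29.9 ± 3.48 CPM in model and 45.1 ± 3.71 CPM in control, SD, log2 fold change -0.59, SE 0.14, adjusted p = 0.00238).

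In the class II pathway 8 of 9 were higher and 1 lower. Ctss, the protease that removes the invariant chain in antigen-presenting cells, was higher at 111 ± 17.0 CPM in model and 34.4 ± 4.29 CPM in control (log2 fold change 1.68, SE 0.16, adjusted p = 1.72e-07). Marchf1 and Marchf8 are related ubiquitin ligases that take class II molecules off the surface, and they went in opposite directions. Marchf1 was higher (14.4 ± 3.55 CPM in model and 2.98 ± 1.34 CPM in control, log2 fold change 2.27, SE 0.28), and Marchf8 was lower (62.2 ± 8.03 CPM in model and 101 ± 22.4 CPM in control, log2 fold change -0.70, SE 0.16, adjusted p = 0.00197). Of the genes of the CD1d pathway, Psap and Gla, lysosomal proteins of lipid handling, were higher (1.20, SE 0.23, and 1.92, SE 0.25), and Mttp had no call (0.23, SE 0.26).

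Among 12 transcriptional regulators 7 were higher and 1 lower. Irf1, an interferon-induced activator of class I genes and of Ciita, had 79.9, 241 and 562 CPM as lowest, median and highest value in model, against 15.4, 17.9 and 24.9 CPM in control (log2 fold change 3.86, SE 0.47, adjusted p = 3.11e-06). Irf8 and Spi1, factors of myeloid cells, were higher with log2 fold changes of 3.39 (SE 0.30) and 2.82 (SE 0.21). The 3 subunits of the RFX complex, which binds the X box, did not move together. Rfx5 was higher (9.11 ± 3.67 CPM in model and 3.53 ± 1.77 CPM in control, log2 fold change 1.35, SE 0.32), Rfxap was lower (3.34 ± 0.65 CPM in model and 5.40 ± 0.63 CPM in control, -0.69, SE 0.19), and Rfxank had no call (-0.58, SE 0.24, adjusted p = 0.0506). Of the NF-Y subunits, Nfya was higher (1.52, SE 0.28), and Nfyb (0.54, SE 0.23) and Nfyc (-0.47, SE 0.31) had no call.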

How the data were processed

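Liver poly(A) RNA of 8 model and 6 control samples was measured. Reads were aligned with HISAT2 to GRCm39, per the submitters' processing notes. Which program counted the reads, on which strand and with which annotation is not given in the sources used here. The authors deposited raw counts of reads for each gene. Summary lines that name no gene held 27.4% to 45.6% of a library's entries and were left out.

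Tests used the 12915 genes kept by filterByExpr and edgeR 4.0.16 under R 4.3.3 (TMM factors, robust quasi-likelihood fit, group as the only term, Benjamini-Hochberg adjustment over all of them). SE is the log2 fold change over the root of F. Log2 CPM for ratios and relations used a prior count of 2. The test was run on simulated data first. Exonic length, overlaps and window shares came from a GRCm38 annotation matched by gene identifier, and promoters from RefSeq. The 55 genes, the lists and the tests were chosen with earlier results of these data known. Every gene that passed the filter is named, and of the other pathway genes the 3 largest called changes in each direction with a mean of at least 5 CPM, plus Irf1, Rfx5, Psmb8, Ctss and 1 gene that is not reported here. Further pathway genes were named after their values were seen. Of that list, Nrdc had no row by that symbol and Cd1d2 was below the filter. Every pair of libraries within a group differed by more than sampling noise. The limit for a count of 0 is 3 counts and covers counting error only. Alternatives were other scalings, tests (DESeq2 1.42.0, limma 3.58.1), filters and prior counts, leaving out libraries, and a replicate block.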

Additional observations from a re-analysis of the deposited data

Results flagged for a closer look

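In 4 of 64 groups of libraries examined (32 genes in both groups), 1 library stood apart from the rest of its group by Dixon's test at 95%, which chance gives in about 1 group in 20. H2-Q7 was at 6.97 CPM in model 6, with the other model libraries between 11.2 and 14.6 CPM, and at 8.20 CPM in control 4, with the other controls between 3.34 and 4.35 CPM. H2-Q6 was at 2.90 CPM in control 6, with the other controls between 0 and 0.824 CPM. Mr1 was at 4.47 CPM in model 3, with the other model libraries between 2.15 and 3.21 CPM. The cause was not tested.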

How the results depend on the processing

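Of the 55 genes, 23 were called higher and between 21 and 23 in 25 alternatives. The count was 21 without model 3 and model 4, where Ciita was below the filter, and 22 without model 7 and model 8. H2-Q6 lost its call in 12 alternatives (adjusted p up to 0.108) and H2-DMb1 in 2 of them. With library totals and with upper-quartile factors 1 gene, Mr1, was called lower, and 1 of the non-classical genes therefore. The other pathway genes gave 22 to 27 higher and 3 to 4 lower.

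The sign turned for 5 genes, none of them called in any setting. H2-Q10 was at -0.22 with library totals, -0.090 with upper-quartile factors, -0.000565 with a length and GC offset, -0.00765 with limma-voom and -0.065 without model 3 and model 4, and between -0.068 and 0.15 with 1 library left out. H2-T22 was at -0.050 with library totals. H2-DMb2 was at 0.022 without model 3 and model 4, 0.19 without model 7 and model 8 and 0.12 with the replicate block, and between -0.335 and 0.12 with 1 library left out. Cd1d1 was at 0.17 without model 7 and model 8 and 0.19 with the block, and between -0.19 and 0.018 with 1 library left out. H2-Q2 was between -0.50 and 0.011 with 1 library left out. The cause was not tested.

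Numbers 1 to 6 occur in both groups, and the labels do not say whether they pair the libraries. Same-numbered libraries deviated from their group means with correlations from -0.34 to 0.36, and none matched its own number best. These correlations cannot exclude a pairing with a small effect. With the number as a replicate block on those 12 libraries, 22 genes were higher. Of the 12 ratios, 8 differed between the groups, 7 to 10 with 1 library left out and 0 with the block, where the smallest p that sign flips of 6 differences can give is 0.0312 and the smallest adjusted p was 0.0536.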
